A study of Mus musculus with 14 samples.

Results

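The DNA replication genes described here were 46 of the 56923 genes in the count table, chosen by symbol and each found once. They were Mcm2 to Mcm7, whose products form the replicative helicase, the related Mcm8, Mcm9 and Mcm10, the 6 origin recognition genes Orc1 to Orc6, the licensing factors Cdc6 and Cdt1 with their inhibitor Gmnn, and Cdc45 with Gins1 to Gins4. They also held the 4 genes each of DNA polymerase alpha-primase, delta and epsilon, the clamp Pcna with its loaders Rfc1 to Rfc5, the RPA genes Rpa1 to Rpa3, and Fen1 and Lig1, which process Okazaki fragments. RNA was measured in whole 2-cell embryos of ICR mice by RNA-seq, in 14 libraries of 7 groups with 2 libraries each, and every library pooled 5 embryos.

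Early 2-cell embryos (E2C) were taken at 30 h and late 2-cell embryos (L2C) at 54 h post-hCG, the hormone injection that triggers ovulation. The G&N groups were cultured from 24 h in mKSOM medium holding 5 µM Gne140, an inhibitor of the lactate dehydrogenases LDHA and LDHB, and 50 µM NMN, a precursor of NAD, with 10 mM lactate. The G&N-L groups had the same drugs and no lactate, and in G&N-L + Lac-CoA (late only) 1 mM of the lactyl donor Lac-CoA was injected as well. By their titles all 5 of these groups carried Gne140 and NMN, and no library without the drugs was measured at the early stage. In the WT and H3K18R groups (late only) zygotes had been injected at 14 h with mRNAs of the histones H3.1, H3.2 and H3.3, either as wild type or with lysine 18 changed to arginine; the embryos' own histone genes were intact. The treatment fields of the early libraries did not match their titles: they named Gne140 alone for G&N, and Gne140 with NMN for G&N-L. If those fields were right, the early groups would differ in NMN too. The mutant count columns were named K18A, and the study's methods give 3 replicates where the table held 2. The titles were followed. Whether the 2 libraries of a group came from separate cultures is not stated, so that p-values measure the spread between these libraries, which may be technical.

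DNA replication starts where the origin recognition complex binds. Cdc6 and Cdt1 then load the MCM2-7 ring, a step that geminin (Gmnn) blocks after licensing. Cdc45 and the GINS complex turn the loaded ring into an active helicase, RPA coats the exposed single strand, polymerase alpha-primase lays primers, and polymerases epsilon and delta extend the leading and lagging strands on the Pcna clamp. The 2-cell embryo passes through its DNA synthesis phase early in the stage and spends most of the rest in a long G2 phase, with proteins and mRNAs stored in the egg at first and embryonic transcription taking over during the stage. In somatic cells many of these genes are transcribed together at the G1/S boundary under E2F factors.

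That shared control made the promoters worth printing beside the values. In the 300 bases around the start of the Ensembl-canonical transcript (250 before, 50 after; GENCODE M39 on GRCm39), a 7-letter E2F-type match (the letters TTCCCGC, the variant TTGGCGC, the variant TTCGCGC or the variant TTGCCGC, on either strand, overlaps counted) stood in 20 of the 46 members (43.5%) and in 2431 of 21757 protein-coding promoters (11.2%). At least 2 such matches stood in 9 members (19.6%) and in 1.37% of all promoters. CCAAT stood in 58.7% of the members and 39.9% of all, and the cell cycle element CHR (TTTGAA) in 4.35% and 17.1%. These are matches of letters, not measured binding, and base composition was not matched between the sets. The 6 stretches that follow are from members whose values are described later. All 6 genes have at least 1 match in the 300 bases, where 20 of the 46 members do, so that the stretches do not stand for the whole list. Each is the longest run without an annotated exon among the 200 bases before the start, read 5′ to 3′ in the direction of the gene, with E2F-type matches in capitals.
Rpa2, chr4:132495446-132495642, plus strand: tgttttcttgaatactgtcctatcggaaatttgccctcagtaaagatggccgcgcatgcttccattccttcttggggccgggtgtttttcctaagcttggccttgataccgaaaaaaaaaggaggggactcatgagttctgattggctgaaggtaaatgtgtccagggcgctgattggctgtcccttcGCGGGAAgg
Rpa3, chr6:8259174-8259287, minus strand: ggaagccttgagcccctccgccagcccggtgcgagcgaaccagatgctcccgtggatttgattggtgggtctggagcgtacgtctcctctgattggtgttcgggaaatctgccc
Cdc6, chr11:98798427-98798506, plus strand: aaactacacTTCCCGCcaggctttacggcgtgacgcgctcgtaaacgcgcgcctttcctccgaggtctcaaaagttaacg
Mcm5, chr8:75835940-75836139, plus strand: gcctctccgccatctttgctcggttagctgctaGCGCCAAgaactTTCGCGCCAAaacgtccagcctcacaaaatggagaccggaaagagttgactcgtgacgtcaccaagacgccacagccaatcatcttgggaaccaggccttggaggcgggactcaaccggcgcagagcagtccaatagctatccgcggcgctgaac
Mcm6, chr1:128287517-128287652, minus strand: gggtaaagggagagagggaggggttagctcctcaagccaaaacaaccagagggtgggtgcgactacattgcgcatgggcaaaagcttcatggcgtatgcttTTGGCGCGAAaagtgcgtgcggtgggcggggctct
Pola1, chrX:92675814-92676013, minus strand: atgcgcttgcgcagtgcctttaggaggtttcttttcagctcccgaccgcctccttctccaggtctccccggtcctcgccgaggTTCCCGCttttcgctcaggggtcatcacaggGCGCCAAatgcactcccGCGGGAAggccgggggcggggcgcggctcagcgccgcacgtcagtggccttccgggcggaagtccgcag
In Mcm5 and Mcm6 matches on the 2 strands overlapped in 1 run of 10 letters, and Mcm6 had a second such run at -36, outside the stretch shown. The single Rpa2 match began at -12, next to the start, while Rpa3 had none before the start and 1 after it.

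Library totals ran from 20350427 to 61275465 counts, and a count of 0 allowed up to 0.0490 to 0.147 CPM (a gene's counts per 1e+06 counts of the library). Levels are CPM on library sizes normalized by TMM, edgeR's scaling, over the 14 libraries, with factors of 0.826 to 0.940 in the early and 0.980 to 1.14 in the late libraries. The embryo origin was checked on marker lists. The 12 oocyte and maternal markers summed to 21868 to 29453 CPM early, 9985 to 19423 in the late drug-treated groups and 3704 to 8339 in WT and H3K18R. The 9 two-cell markers found summed to 462 to 822 CPM early and 1073 to 3499 CPM late, and the 15 cumulus cell markers summed to 9.59 to 42.3 CPM, with 4 to 8 of them over 3 counts and Amh and Inhba at 0 throughout. H3K18R replicate 2 stood apart, with a maternal sum of 8339 CPM against 4047 in replicate 1. Because whole embryos were pooled, fewer cells with a transcript and less of it per cell cannot be told apart.

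**Figure D1:**
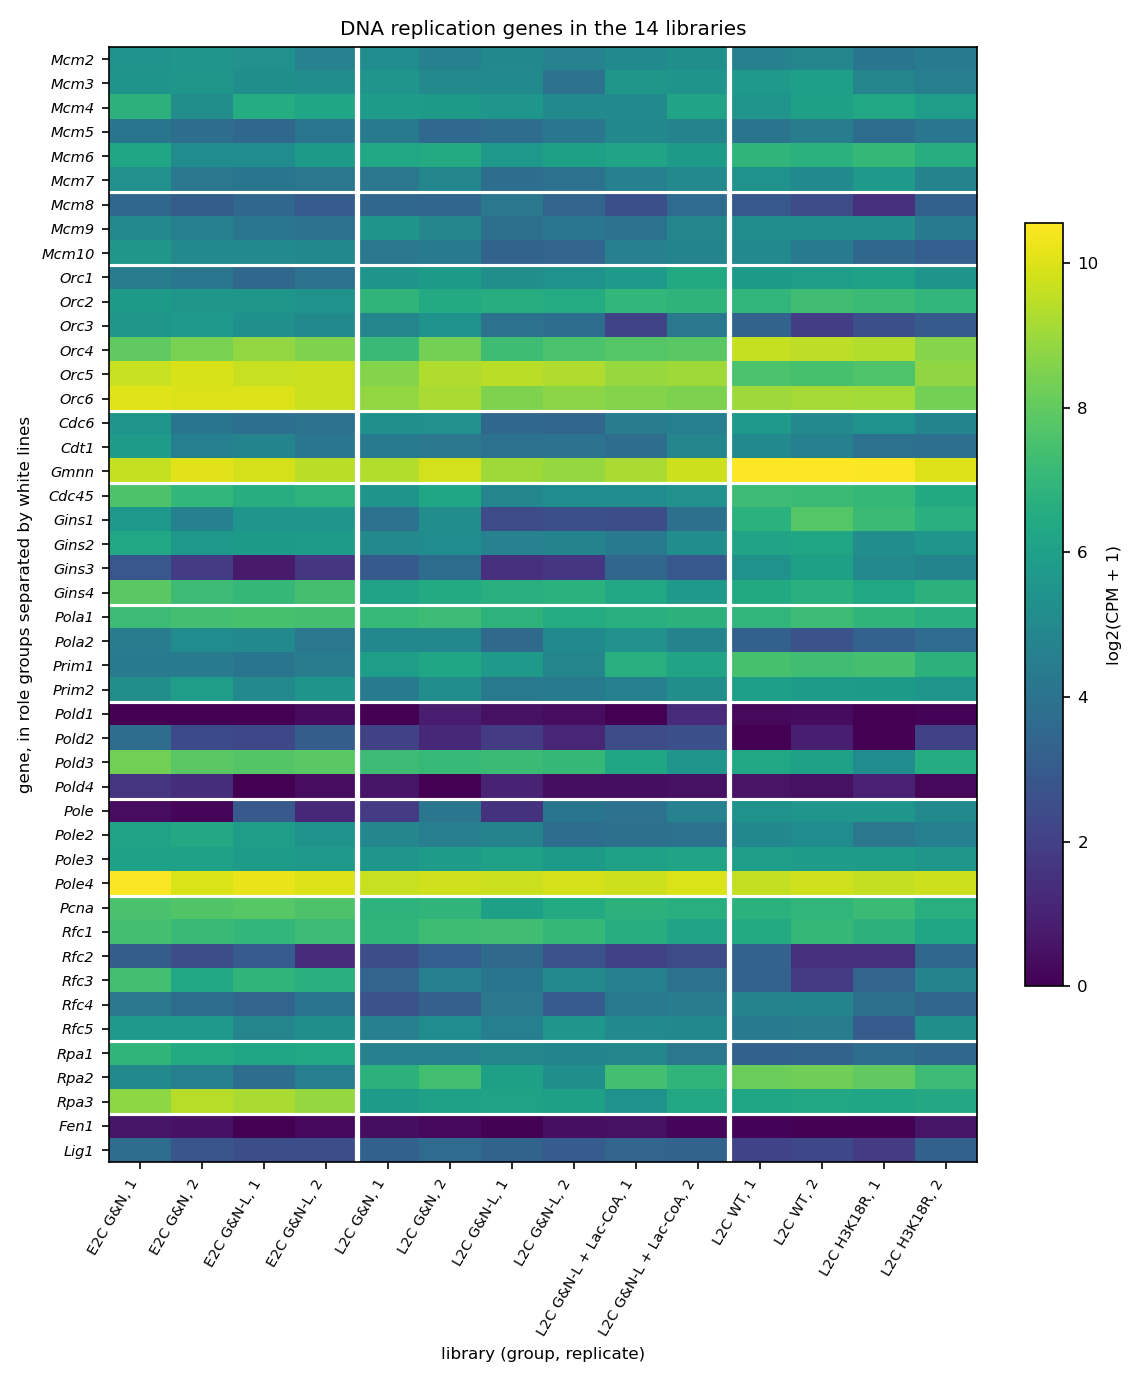
Level of each of the 46 genes (rows, in role groups) in each of the 14 libraries (columns, group and replicate), coloured by log2(CPM + 1). Gmnn, Pole4, Orc4, Orc5 and Orc6 are bright in all libraries, and Pold1, Pold4 and Fen1 are dark in all of them.

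The machinery was represented very unevenly. For comparison between genes, levels were divided by the length of the Ensembl-canonical transcript alone, and other transcripts of a gene were not considered. Per kilobase, Pole4, a small histone-fold subunit of polymerase epsilon, was highest in the drug-treated groups. It had 2303 CPM per kb in early and 1609.8 in late G&N, and Gmnn was next with 968 and 809. In WT the order of these turned, at 1556 CPM per kb for Gmnn and 1547 for Pole4, a gap within the spread of Pole4, whose libraries were 762 and 874 CPM. Rpa3 (834 CPM per kb), Orc6 (616) and Orc5 (407) followed in early G&N. At the other end stood Pold1, the catalytic subunit of polymerase delta, with at most 60 counts in a library and 3 counts or fewer in 7 of 14 libraries. Its levels were 0 and 0 CPM in early G&N, 0 and 0.227 in early G&N-L, 0 and 0.735 in late G&N, 0.39 and 0.261 in late G&N-L, 0 and 1.38 in G&N-L + Lac-CoA, 0.174 and 0.247 in WT and 0 and 0.0876 in H3K18R. Fen1, the flap endonuclease, had at most 27 counts (0.530 CPM) and Pold4 at most 102 counts (2.00 CPM). The remaining 43 members had more than 3 counts in all libraries, apart from Pold2, which was at 3 counts or fewer in 2 of them.

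Summed over the 46 genes, the level was 7260.5 ± 213 CPM in early G&N and 6554 ± 507 in early G&N-L (mean ± SD, n = 2 libraries here and in all groups). Late it was 4681 ± 807 in G&N, 4015 ± 9.64 in G&N-L, 4357 ± 294 in G&N-L + Lac-CoA, 6203 ± 216 in WT and 5331 ± 656 in H3K18R. The early drug-treated sums lay above all late drug-treated ones, while those of WT overlapped the early G&N-L range. Scaled to library totals without TMM the early sums were 6018 and 5770 CPM, and the late drug-treated ones 4805, 4367 and 4941.

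From the early to the late 2-cell stage the replication genes did not move as one. In G&N embryos 9 of the 45 members tested changed at an adjusted p under 0.05 (20%, against 13.7% of the 19443 genes tested), 6 lower (5.47% of all genes) and 3 higher (8.18%). Rpa3, Rpa1, Rfc3, Pole2, Gins4 and Orc6 fell, and Rpa2, Prim1 and Pole rose. In G&N-L embryos 13 of 44 changed (29.5%, against 11.8% of 18604), 11 lower (5.87% of all) and 2 higher (5.97%). Here Rpa3, Gins1, Orc6, Cdc45, Pcna, Rpa1, Orc4, Rfc3, Mcm10, Gins2 and Orc3 fell, and Orc2 and Orc1 rose. Adjusted p-values come from the quasi-likelihood test of edgeR and are corrected by the Benjamini-Hochberg method over all genes in the fit. Unadjusted p-values under 0.05 were found for 13 members lower and 5 higher in G&N (14.6% and 19.8% of all genes, 34.4% either way), and for 19 lower and 3 higher in G&N-L (13.4% and 19.1%, 32.5% either way).

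The 2 stage comparisons share no library. Of 44 members tested in both, 37 (84.1%) had the same sign, and 4 were called in both with the same sign, which is 4 of the 9 and 4 of the 13. These were Orc6, Rfc3, Rpa1 and Rpa3, all lower late. Agreement between the media was not counted over all genes, so it cannot be read as a trait of the members. The Orc6 call in G&N did not hold under several alternatives given with its values. In G&N-L the Rfc3 call was lost in one edgeR fit of all 14 libraries (adjusted p = 0.0529). Gins4 and Pole2 in G&N were lost on library totals (0.0814 and 0.0721) and with replicate number as a block (0.0657 and 0.0732). The block also lost Prim1 (0.0545) and Pole (0.0991) in G&N. In G&N-L it lost Orc1 (0.0741), Orc2 (0.0774) and Mcm10 (0.0701). Mcm10 was also lost on library totals (0.0531). The median log2 fold change of the members was -0.57 in G&N, against 0.08 over all genes, and -0.44 in G&N-L, against 0.15. Scaled to library totals these medians became -0.20 and -0.07 while those of all genes became 0.46 and 0.51, a difference between members and all genes of -0.66 and -0.58, where it was -0.65 and -0.58 with TMM. That difference was smaller with at least 10 counts in every library, at -0.33 in G&N and -0.37 in G&N-L. With 1 library left out it ran from -0.41 (without late replicate 1) to -1.02 (without early replicate 1) in G&N and from -0.61 (without late replicate 1) to -0.96 (without early replicate 1) in G&N-L. Scaling to library totals moved all calls toward higher, from 59.9% to 76.4% of the called genes in G&N and from 50.4% to 72.6% in G&N-L, and among the members it gave 3 lower and 4 higher in G&N and 8 lower and 2 higher in G&N-L. Both late libraries lay below both early ones for 24 members in G&N (28.9% of all genes did) and for 25 in G&N-L (26.1%), and above for 7 (35.7%) and 6 (36.4%). With 1 library left out, fewer members were called in every stage fit, and fewer of all genes too. Such a fit leaves 1 library in a group, so that its counts cannot be read as a trait of the members.

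**Figure D2:**
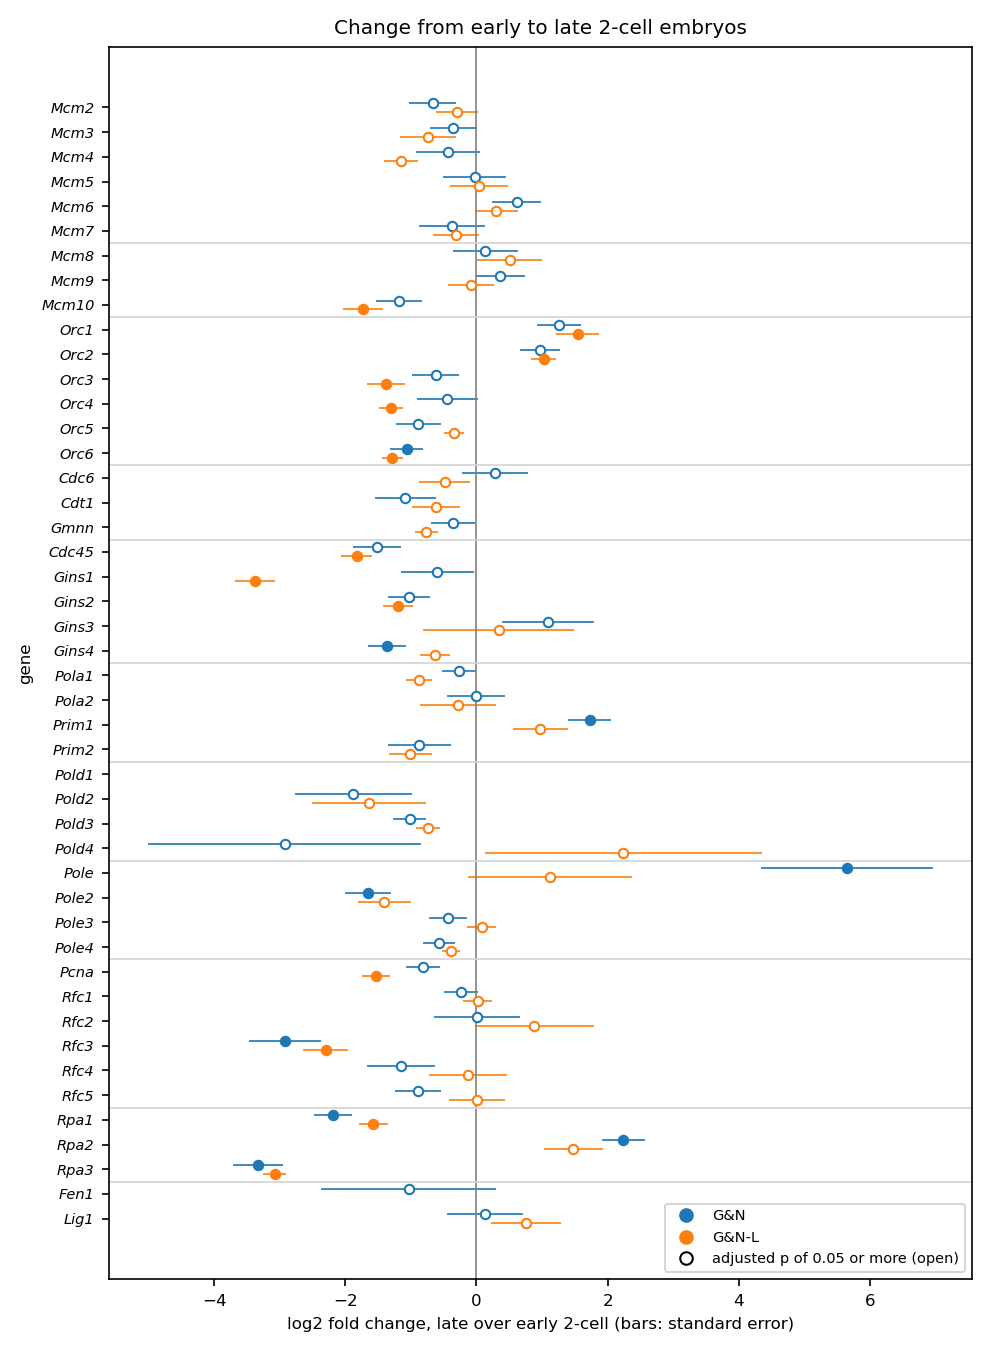
Log2 fold change from early to late 2-cell embryos of each member tested (x axis, bars are the standard error), with lactate (G&N) and without it (G&N-L). Filled points passed an adjusted p of 0.05. Rpa3, Rpa1 and Rfc3 are far left in both media, and Rpa2 and Prim1 are to the right.

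The 3 subunits of RPA, a complex that works as a trimer, parted in opposite directions, and all 3 passed the test in G&N. Rpa3 (ENSMUSG00000012483.5, chr6:8255929-8259173, minus strand), the smallest subunit, was at 435 and 682 CPM in early and 54.8 and 64.5 CPM in late G&N libraries, and 593 and 473 CPM in early and 67.6 and 63.7 CPM in late G&N-L libraries. It fell by 3.33 on the log2 scale in G&N (SE 0.38, adjusted p = 0.0106) and by 3.08 in G&N-L (SE 0.18, adjusted p = 0.00489), and no late library reached an early one. Rpa1 (ENSMUSG00000000751.14, chr11:75188992-75239455, minus strand), the large subunit that carries most of the DNA-binding folds, was at 119.97 and 87.4 CPM in early and 23.3 and 24.2 CPM in late G&N libraries, and 72.4 and 79.7 CPM in early and 27.4 and 25.9 CPM in late G&N-L libraries. It fell by 2.18 (SE 0.29, adjusted p = 0.0135) and by 1.58 (SE 0.22, adjusted p = 0.0183). Rpa2 (ENSMUSG00000028884.15, chr4:132495643-132506063, plus strand), the subunit phosphorylated in the checkpoint response, went the other way. It was at 32.2 and 23.5 CPM in early and 109 and 165 CPM in late G&N libraries, and 12.5 and 21.7 CPM in early and 62.8 and 37.05 CPM in late G&N-L libraries, a log2 fold change of 2.24 ± 0.33 (SE) in G&N (adjusted p = 0.0169) and of 1.48 ± 0.45 in G&N-L, where it did not pass (adjusted p = 0.0825).

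Per kilobase of Ensembl-canonical transcript, the ratio of Rpa3 to Rpa2 was 36.5 and 78.6 in the early G&N libraries and 128 and 59.1 in early G&N-L. It was 1.35 and 1.06 in late G&N, 2.91 and 4.65 in late G&N-L, 0.673 and 1.74 in G&N-L + Lac-CoA, 0.691 and 0.69 in WT and 0.777 and 1.45 in H3K18R. On this measure Rpa3 stood far above Rpa2 in all 4 early libraries, and the late ratios were at most 4.65. The summed maternal markers were also lower late, at 29453 and 28094 CPM early and 13276 and 15227 CPM late in G&N, and their part in these changes was not tested. Rpa1 overlaps Gm54808 and, on the opposite strand, Smyd4. Over the whole list 29 of 46 members share exon sequence with another gene, 28 of them on the opposite strand; of those called, Rpa2, Rpa3, Rfc3, Gins4 and Mcm10 share none, and whether the counting used strand is not given in the sources used here.

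**Figure D3:**
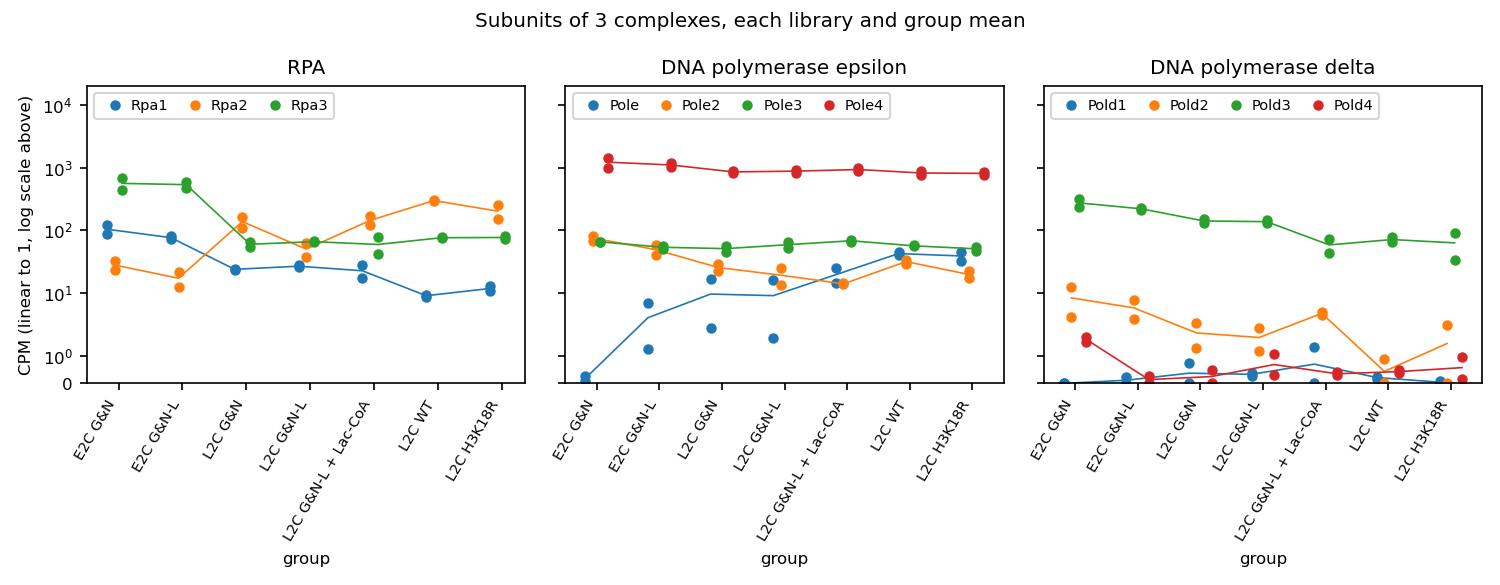
CPM (y axis, linear up to 1 and logarithmic above) of the subunits of RPA, DNA polymerase epsilon and DNA polymerase delta in the 7 groups (x axis), with 1 point per library and lines through the group means. Rpa2 lies below Rpa1 and Rpa3 early and above Rpa1 in all late groups, and above Rpa3 in all late groups but G&N-L, where both of its points are below those of Rpa3. Pole goes from under 1 CPM in early G&N to 32.4 CPM or more in WT and H3K18R, and Pold1 and Pold4 are at 2.00 CPM or less throughout.

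Among the origin recognition genes, Orc1 and Orc2 were higher late in both media and Orc3 to Orc6 lower. Orc1 (ENSMUSG00000028587.19, chr4:108436540-108473245, plus strand), the subunit whose ATPase is needed to load the helicase, was at 21.4 and 16.8 CPM in early G&N, 10.6 and 14.5 in early G&N-L, 42.5 and 52.8 in late G&N, 35.9 and 40.5 in late G&N-L, 49.8 and 84.2 in G&N-L + Lac-CoA, 53.3 and 57.4 in WT and 64.6 and 43.1 in H3K18R. All 10 late libraries lay above all 4 early ones, and the log2 fold change was 1.54 ± 0.33 in G&N-L (adjusted p = 0.0467) and 1.26 ± 0.34 in G&N, just outside the threshold (adjusted p = 0.0631). The G&N change passed with DESeq2 (adjusted p = 0.00106). In edgeR it passed on library totals (0.0447), without the filter (0.0478), with at least 10 counts (0.0250) and in one fit of all 14 libraries (0.0324). Orc2 was at 53.1 and 46.9 CPM in early and 119 and 86.2 CPM in late G&N libraries, and 46.7 and 40.98 CPM in early and 95.5 and 89.9 CPM in late G&N-L libraries, a log2 fold change of 1.02 ± 0.19 in G&N-L (adjusted p = 0.0347) and 0.97 ± 0.30 in G&N, which did not pass (adjusted p = 0.0787). Orc6, the subunit least tightly bound to the others, stood at 1048 and 1029.8 CPM in early and 461 and 588 CPM in late G&N libraries, and 1008 and 827 CPM in early and 359.9 and 425 CPM in late G&N-L libraries. It fell by 1.06 in G&N (adjusted p = 0.0498) and 1.28 in G&N-L (adjusted p = 0.0139). The Orc6 call in G&N was at the edge of the threshold and was lost with DESeq2 size factors in edgeR (-0.96, adjusted p = 0.0641), on library totals (-0.68, adjusted p = 0.0772), with the replicate number as a block (adjusted p = 0.0541) and with any 1 of the 4 libraries left out. Orc3 was at 37.8 and 31.9 CPM early and 14.9 and 12.97 late in G&N-L (-1.38, adjusted p = 0.0455), and Orc4 at 455 and 359.8 CPM early and 154 and 189 late (-1.30, adjusted p = 0.0183). With lactate these 2 and Orc5 did not pass, with log2 fold changes of -0.62, -0.45 and -0.88. In G&N-L the transcripts of this complex therefore changed in both directions, 2 higher and 3 lower.

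No member of the licensing group passed with stage in either medium by edgeR; at an unadjusted p under 0.05 there were 0 in G&N and 1 in G&N-L, Gmnn (-0.77 ± 0.18, adjusted p = 0.0532), which DESeq2 called (adjusted p = 0.000609). Cdc6 (ENSMUSG00000017499.16, chr11:98798507-98814766, plus strand), the ATPase that recruits the helicase, was at 46.3 and 16.3 CPM in early G&N, 13.6 and 14.5 in early G&N-L, 37.9 and 39.3 in late G&N, 10.7 and 10.3 in late G&N-L, 20.5 and 22.7 in G&N-L + Lac-CoA, 49.2 and 30.7 in WT and 42.02 and 25.8 in H3K18R. Early G&N replicate 1 was high, at 46.3 CPM against 13.6 to 16.3 in the other early libraries, and the G&N log2 fold change of 0.28 became 1.19 without it and -0.20 without early replicate 2. Cdt1, its partner in loading, was at 53.9 and 22.6 CPM in early G&N, 26.5 and 16.9 in early G&N-L, 19.6 and 17.2 in late G&N, 14.3 and 15.1 in late G&N-L, 12.5 and 26.8 in G&N-L + Lac-CoA, 32.5 and 24.02 in WT and 14.1 and 13.3 in H3K18R. The same early library was the highest of all 14. Gmnn, geminin, was at 791 and 1074 CPM in early G&N, 933 and 701 in early G&N-L, 641 and 916 in late G&N, 528 and 468 in late G&N-L, 593 and 866 in G&N-L + Lac-CoA, 1494 and 1503 in WT and 1453 and 1021 in H3K18R. It was among the most abundant members throughout, and WT and H3K18R replicate 1 lay above all 10 drug-treated libraries.

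The 6 genes of the MCM2-7 ring gave no adjusted call by edgeR in either stage comparison, with 0 at an unadjusted p under 0.05 in G&N and 1 in G&N-L. Mcm2 was at 42.4 and 44.4 CPM in early G&N, 39.6 and 24.6 in early G&N-L, 33.7 and 23.9 in late G&N, 29.6 and 24.4 in late G&N-L, 32.2 and 37.6 in G&N-L + Lac-CoA, 23.7 and 27.7 in WT and 16.4 and 19.3 in H3K18R. Mcm3 was at 43.03 and 47.6 CPM in early G&N, 37.7 and 35.2 in early G&N-L, 44.3 and 30.7 in late G&N, 30.9 and 14.5 in late G&N-L, 46.4 and 43.05 in G&N-L + Lac-CoA, 49.9 and 61.4 in WT and 27.1 and 22.1 in H3K18R. Mcm4 was at 109 and 35.8 CPM in early G&N, 91.02 and 73.97 in early G&N-L, 55.9 and 52.5 in late G&N, 45.3 and 32.01 in late G&N-L, 32.2 and 70.3 in G&N-L + Lac-CoA, 44.5 and 62.2 in WT and 77.2 and 59.1 in H3K18R. For these 3 the early and late ranges of the drug-treated libraries overlapped, and Mcm4 differed widely between the early G&N libraries. Mcm5 was at 16.3 and 12.9 CPM in early G&N, 10.6 and 16.5 in early G&N-L, 18.7 and 11.2 in late G&N, 12.7 and 16.6 in late G&N-L, 29.2 and 25.5 in G&N-L + Lac-CoA, 15.7 and 20.7 in WT and 12.4 and 16.6 in H3K18R. Mcm6 (ENSMUSG00000026355.12, chr1:128259311-128287516, minus strand) was at 72.9 and 33.9 CPM in early G&N, 34.1 and 52.6 in early G&N-L, 79.9 and 87.2 in late G&N, 48.7 and 63.9 in late G&N-L, 71.1 and 52.2 in G&N-L + Lac-CoA, 117 and 105 in WT and 129 and 94.9 in H3K18R. Mcm7 was at 39.97 and 17.1 CPM in early G&N, 16.00 and 17.1 in early G&N-L, 17.02 and 28.01 in late G&N, 13.1 and 14.7 in late G&N-L, 23.5 and 30.7 in G&N-L + Lac-CoA, 40.1 and 31.5 in WT and 49.3 and 25.6 in H3K18R. The stage log2 fold changes of the 6 ran from -0.67 (Mcm2) to 0.61 (Mcm6) in G&N and from -1.15 (Mcm4) to 0.30 (Mcm6) in G&N-L, where Mcm4 came nearest to a call (adjusted p = 0.0532) and was the 1 gene of the ring called by DESeq2 (0.00246). Mcm5 and Mcm6, which had 3 and 5 E2F-type matches, were not called. Mcm10, which helps to activate the loaded helicase, was called in G&N-L, at 31.6 and 29.5 CPM early and 9.39 and 9.78 late (-1.73 ± 0.31, adjusted p = 0.0311). Mcm8 and Mcm9, which act in recombination, were not called in either medium and ran from 1.77 to 17.01 and from 14.04 to 43.4 CPM over the 14 libraries.

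Cdc45, Gins1, Gins2 and Gins4 had negative stage values in both media and Gins3 positive ones. Cdc45 was at 197 and 128 CPM in early G&N, 95.6 and 113 in early G&N-L, 42.7 and 74.9 in late G&N, 27.3 and 34.3 in late G&N-L, 33.8 and 39.98 in G&N-L + Lac-CoA, 151 and 145 in WT and 129.9 and 83.9 in H3K18R. Late drug-treated libraries lay below all early ones, WT libraries lay within the early range, and H3K18R replicate 2 was just below it. The change was -1.83 ± 0.24 in G&N-L (adjusted p = 0.0152) and -1.52 ± 0.37 in G&N (adjusted p = 0.0519). The G&N change passed with DESeq2 (adjusted p = 0.00245). In edgeR it passed without the filter (0.000381), with at least 10 counts (0.0183) and in one fit of all 14 libraries (0.0139). Gins1 (ENSMUSG00000027454.11, chr2:150747320-150773202, plus strand) had the largest fall of any member in G&N-L, from 45.6 and 45.96 to 4.26 and 4.96 CPM (-3.37 ± 0.31, adjusted p = 0.00777), while in G&N it was at 48.8 and 24.3 CPM early and 14.3 and 35.4 late (-0.60 ± 0.56, adjusted p = 0.523). Gins2 was called in G&N-L (-1.20, adjusted p = 0.0374) and Gins4 in G&N (-1.36, adjusted p = 0.0389). Gins2 went from 52.9 and 56.4 to 24.6 and 25.3 CPM and Gins4 from 229 and 151 to 67.2 and 86.4 CPM. Gins3 was low early, at 6.26 and 2.59 CPM in G&N and 0.68 and 2.22 in G&N-L, and was not called.

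The polymerases also split by subunit. Pole (ENSMUSG00000007080.15, chr5:110434172-110486287, plus strand), the catalytic subunit of the leading-strand polymerase, was at 0.275 and 0.091 CPM in early G&N, 6.78 and 1.27 in early G&N-L, 2.71 and 16.4 in late G&N, 1.90 and 16.2 in late G&N-L, 14.4 and 24.6 in G&N-L + Lac-CoA, 40.2 and 44.5 in WT and 45.2 and 32.4 in H3K18R. It was nearly absent in early G&N, at 4 to 14 counts a library, and its log2 fold change of 5.64 ± 1.31 (adjusted p = 0.0484) rested on those counts and became 3.84 without late G&N replicate 2. The libraries of a drug-treated group differed widely, while the 4 WT and H3K18R libraries were all at 32.4 CPM or more. Pole2, a regulatory subunit, went the other way, at 67.5 and 82.3 CPM in early and 28.8 and 21.99 CPM in late G&N libraries, and 57.9 and 40.1 CPM in early and 25.1 and 13.2 CPM in late G&N-L libraries, with a fall of 1.65 in G&N (adjusted p = 0.0399). Prim1, the catalytic primase subunit, rose from 19.5 and 19.2 to 59.2 and 76.01 CPM in G&N (1.73 ± 0.33, adjusted p = 0.0306). In G&N-L it was at 16.00 and 21.3 CPM early and 49.7 and 26.6 late (0.97 ± 0.42, adjusted p = 0.19). Pola1 (ENSMUSG00000006678.7, chrX:92348365-92675813, minus strand), the catalytic subunit of polymerase alpha, was at 151 and 166 CPM in early G&N, 180.2 and 172 in early G&N-L, 132 and 148 in late G&N, 111 and 88.8 in late G&N-L, 100.4 and 108 in G&N-L + Lac-CoA, 124 and 149.5 in WT and 119.7 and 101 in H3K18R. Over all libraries it ran between 88.8 and 180.2 CPM. From early to late G&N-L it fell without overlap, a change that edgeR with its default filter did not call. DESeq2 called it (-0.82, adjusted p = 0.00156). So did edgeR without the filter (adjusted p = 0.0332) or with at least 10 counts in every library (adjusted p = 0.0358). Pold3, the accessory subunit of polymerase delta, was at 313 and 234 CPM in early and 149 and 132 CPM in late G&N libraries, and 209 and 229 CPM in early and 145 and 129 CPM in late G&N-L libraries, with changes of -1.02 (adjusted p = 0.0513) and -0.74 (adjusted p = 0.0609).

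Pcna, the sliding clamp, was at 182 and 207 CPM in early G&N, 226 and 194 in early G&N-L, 114 and 120.4 in late G&N, 63.8 and 87.1 in late G&N-L, 108 and 101 in G&N-L + Lac-CoA, 107 and 123 in WT and 147 and 99.96 in H3K18R. Every late library was below every early one, and the change passed in G&N-L (-1.54 ± 0.22, adjusted p = 0.0178) but not in G&N (-0.82 ± 0.27, adjusted p = 0.0885). Rfc3, a small subunit of the clamp loader, was the only loader gene called, in both media. It was at 164 and 76.1 CPM in early and 9.99 and 22.7 CPM in late G&N libraries, and 118 and 103 CPM in early and 16.3 and 30.5 CPM in late G&N-L libraries, a fall of 2.91 (adjusted p = 0.0299) and 2.30 (adjusted p = 0.0203). Rfc1, Rfc2, Rfc4 and Rfc5 had log2 fold changes between -1.16 and 0.01 in G&N and between -0.13 and 0.88 in G&N-L. Lig1, the replicative ligase, ranged from 2.59 to 12.4 CPM and was not called. Of the members called in G&N, 3 of 3 higher and 3 of 6 lower ones had an E2F-type match, and in G&N-L 1 of 2 and 5 of 11. Over the whole list 20 of the 46 members (43.5%) had one. With so few called members, a link between a match and a direction was not tested.

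Absence of lactate at the late stage, the comparison that asks what lactate supplies while the embryonic genome is activated, gave no adjusted call for any of the 46 members, all of which were tested. None of the 19481 genes passed in this fit either (0%). At an unadjusted p under 0.05 there were 8 members, all lower without lactate (17.4% of the members), where 12% of all genes had such a p, 7.65% lower and 4.32% higher. The same data in DESeq2 called 3 members and 934 genes, and edgeR without a filter on low counts called 3 and 317. The 3 were Cdc6, Gins1 and Rpa2 in both. The median log2 fold change of the members was -0.28, against -0.02 over all genes. This difference of -0.27 became -0.10 and -0.14 without G&N-L replicate 1 or 2 and -0.49 and -0.36 without G&N replicate 1 or 2. In these 4 fits the median of the members ran from -0.35 to -0.22 and that of all genes from -0.17 to 0.15. Without G&N-L replicate 1 or 2 the members stayed at -0.27 and -0.28, and all genes moved to -0.17 and -0.14. Both libraries without lactate lay below both with it for 19 members (24.9% of all genes did) and above for 3 (18.6%).

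Cdc6 had the smallest p, at 37.9 and 39.3 CPM with lactate and 10.7 and 10.3 without, a log2 fold change of -1.83 ± 0.33 (SE; adjusted p = 0.311 in edgeR, 0.000813 in DESeq2). The pairs were tight and far apart. Gins1 was at 14.3 and 35.4 CPM in G&N against 4.26 and 4.96 in G&N-L (-2.37 ± 0.56, adjusted p = 0.321, DESeq2 0.00749), and Rpa2 at 109 and 165 CPM in G&N against 62.8 and 37.05 in G&N-L (-1.40 ± 0.36, adjusted p = 0.33, DESeq2 0.00907). Gins1 varied over 2-fold between the G&N libraries. Gins3 was at 6.98 and 12.3 CPM in G&N against 1.74 and 2.14 in G&N-L (-2.25 ± 0.65, adjusted p = 0.332) and Orc3 at 26.8 and 40.7 CPM in G&N against 14.9 and 12.97 in G&N-L (-1.22 ± 0.37, adjusted p = 0.333). The other members under an unadjusted p of 0.05 were Mcm9 (-1.19), Gmnn (-0.59) and Cdc45 (-0.88). By role, licensing held 2 of its 3 genes among the 8, Cdc45 and GINS 3 of 5, and the 12 polymerase genes and the 6 clamp genes none. MCM2-7 summed to 250 and 233 CPM in G&N and to 180 and 166 CPM in G&N-L, with none of the 6 under 0.05. Maternal markers summed to 13276 and 15227 CPM in G&N and 16903 and 19423 CPM in G&N-L, two-cell markers to 2099 and 2169 and to 2473 and 2894 CPM, and their part in these differences was not tested.

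**Figure D4:**
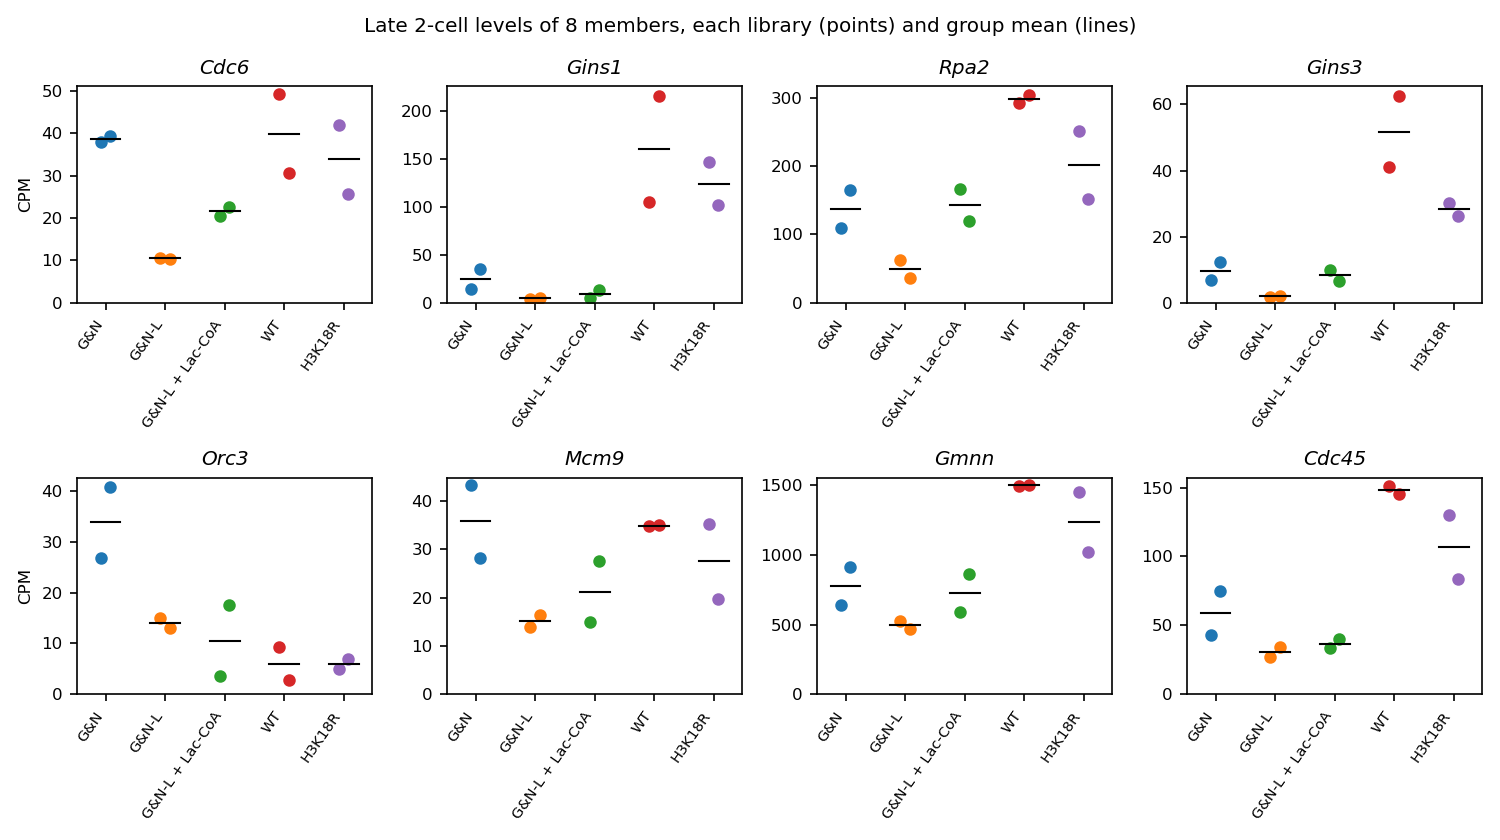
CPM (y axis, from 0) in the late 2-cell groups (x axis) of the 8 members with an unadjusted p under 0.05 between G&N-L and G&N, with 1 point per library and a line at each group mean. For all 8 both G&N-L points lie below both G&N points, and WT points lie well above the drug-treated groups for Gins1, Gins3, Rpa2, Gmnn and Cdc45.

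The early stage followed culture in the drugs from 24 h to 30 h. Absence of lactate there gave 0 adjusted calls among 45 members by edgeR and 0 by DESeq2. Among all 17343 genes edgeR called 0 and DESeq2 38. At an unadjusted p under 0.05 there was 1 member (2.22%, against 4.52% of the genes, 2.7% lower and 1.82% higher). Both libraries without lactate lay below both with it for 20 members (21.3% of all genes) and above for 3 (11.4%). The member under 0.05 was Pole, at 0.275 and 0.091 CPM with and 6.78 and 1.27 CPM without lactate (4.54 ± 1.30, adjusted p = 1), from very low counts. The next smallest p belonged to Mcm9 (-0.65 ± 0.31), Cdc6 (-0.99 ± 0.49), Orc4 (0.54 ± 0.27) and Cdc45 (-0.49 ± 0.25), all with an adjusted p of 1. For Cdc6 the early values were 46.3 and 16.3 CPM with lactate and 13.6 and 14.5 CPM without. Whether the change without lactate differed between the stages was tested as an interaction over 8 libraries. It gave 0 adjusted calls by edgeR among 46 members. At an unadjusted p under 0.05 there were 2, both negative (4.35%, against 7.55% of 22287 genes, 3.98% negative and 3.57% positive). DESeq2 called 1 member and 246 of the genes. The called member was Gins1, with an interaction of -2.82 ± 0.68 on the log2 scale (adjusted p = 0.564 in edgeR, 0.00955 in DESeq2). Late it was at 14.3 and 35.4 CPM with and 4.26 and 4.96 CPM without lactate, while early it was at 48.8 and 24.3 CPM with and 45.6 and 45.96 CPM without lactate. Pole was the other (-4.55 ± 1.87, adjusted p = 0.65).

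With Lac-CoA injected into embryos without lactate, no member passed an adjusted p of 0.05 by edgeR against G&N-L, and 10 of 46 had an unadjusted p under 0.05 (21.7%, against 13.3% of 19610 genes), 6 higher (6.92% of all) and 4 lower (6.38%). Both Lac-CoA libraries lay above both G&N-L ones for 18 members (24.8% of all genes) and below for 5 (22%). DESeq2 called 3 of the 46 members and 1215 of the 19610 genes. The 3 were Rpa2, which was higher, and Pold3 and Rfc1, which were lower. The median log2 fold change was 0.33, against -0.01 over all genes, a difference of 0.33. Without G&N-L replicate 1 the difference was 0.09 (0.22 against 0.13), without G&N-L replicate 2 it was 0.23, without Lac-CoA replicate 2 it was 0.24 (0.11 against -0.13), and without Lac-CoA replicate 1 it was 0.51. All 6 MCM2-7 genes had positive values, as did 9726 of the 19610 genes. Of the 6, 1 had an unadjusted p under 0.05 by edgeR (0.0485). Their median was 0.60 (Mcm4 became -0.30 without Lac-CoA replicate 2) and their summed level 235 and 259 CPM against 180 and 166 CPM. The G&N-L libraries are shared with the comparison on lactate, so that a high or low library there enters both, and each group's values are given side by side. A mock injection of G&N-L or G&N embryos is not described, so that Lac-CoA and the injection itself cannot be told apart.

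Rpa2 was at 166 and 119.5 CPM with Lac-CoA, 62.8 and 37.05 in G&N-L and 109 and 165 in G&N (1.47 ± 0.35 against G&N-L, adjusted p = 0.294, DESeq2 0.00246). The Lac-CoA values overlapped those with lactate. Cdc6 was at 20.5 and 22.7 CPM, between the G&N-L and G&N libraries without touching either (0.99 ± 0.37, unadjusted p = 0.043). Gins1 was at 4.85 and 13.9 CPM, with 1 library at the G&N-L level. Mcm10 was at 23.1 and 25.9 CPM against 9.39 and 9.78 (1.30 ± 0.37, adjusted p = 0.305) and Gins3 at 10.1 and 6.53 against 1.74 and 2.14 (2.05 ± 0.69, adjusted p = 0.31). Both were above their G&N-L libraries without overlap. In the other direction Pold3 was at 72.5 and 43.9 CPM with Lac-CoA, 145 and 129 in G&N-L and 149 and 132 in G&N, with log2 fold changes of -1.28 ± 0.31 (DESeq2 adjusted p = 0.00389) and, against G&N, -1.18 ± 0.33 (DESeq2 0.0250). Its edgeR adjusted p-values were 0.294 and 0.5. Rfc1, the large loader subunit, was at 94.7 and 70.6 CPM with Lac-CoA, 160.01 and 131 in G&N-L and 119 and 155 in G&N (-0.86 ± 0.25 against G&N-L, adjusted p = 0.305).

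Against G&N embryos with lactate, Lac-CoA embryos had 0 edgeR calls and 1 DESeq2 call among the 46 members, Pold3. DESeq2 called 476 of all 19613 genes. At an unadjusted p under 0.05 there were 2 members (4.35%, against 8.51% of the genes), 1 lower (4.1% of all) and 1 higher (4.41%). Lac-CoA libraries lay below both G&N ones for 13 members (22.2% of all genes) and above for 5 (17.4%). The higher one was Rfc4, at 17.99 and 20.6 CPM with Lac-CoA and 5.45 and 8.36 in G&N (1.58 ± 0.46, adjusted p = 0.5). Cdc6 (-0.75 ± 0.31), Rfc1 (-0.63 ± 0.27) and Mcm5 (0.96 ± 0.44) came next, with unadjusted p-values of 0.0538, 0.062 and 0.0735. Among the late drug-treated groups, maternal markers had their lowest mean in the Lac-CoA group, at 14236 and 9985 CPM. Its replicate 1 lay between the G&N libraries (13276 and 15227 CPM). Two-cell markers were highest with Lac-CoA, at 3272 and 3499 CPM, and the part of both lists in these values was not tested.

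Embryos injected with H3K18R were compared with those injected with WT histone mRNA. Of 44 members tested 0 passed by edgeR (1 of 17704 genes did, 0.00565%) and 0 by DESeq2 (120 genes did). At an unadjusted p under 0.05 there were 5, all lower with H3K18R (11.4% of the members, against 6.44% of all genes, 2.67% lower and 3.77% higher). Mcm3 was at 49.9 and 61.4 CPM in WT and 27.1 and 22.1 in H3K18R (-1.17 ± 0.34, adjusted p = 0.734). Mcm10 was at 31.1 and 19.5 CPM in WT and 10.9 and 7.80 in H3K18R (-1.43 ± 0.48), and Cdt1 at 32.5 and 24.02 CPM in WT and 14.1 and 13.3 in H3K18R (-1.04 ± 0.40). The groups did not overlap in these 3, in Gins2 or in Rfc4, and over the members both H3K18R libraries lay below both WT ones for 15 and above for 4 (19.5% of all genes each way). Gins2 was at 71.3 and 74.8 CPM in WT and 35.6 and 45.5 in H3K18R (-0.85 ± 0.31) and Rfc4 at 25.7 and 26.2 CPM in WT and 14.1 and 10.2 in H3K18R (-1.09 ± 0.42). Without H3K18R replicate 2, whose maternal markers stood apart, the 5 values were -1.03 for Mcm3, -1.21 for Mcm10, -0.99 for Cdt1, -1.03 for Gins2 and -0.88 for Rfc4.

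The WT and H3K18R embryos carried no drug, were injected as zygotes and were not compared by a test with the drug-treated groups, since injection, drugs and any difference between experiments cannot be told apart. Side by side, Gins1 was at 105 and 216 CPM in WT and 146 and 102 in H3K18R, above all 10 drug-treated libraries (4.26 to 48.8 CPM). Gins3 was at 41.00 and 62.5 CPM in WT and 30.3 and 26.3 in H3K18R, also above all of them (0.680 to 12.3 CPM), and Pole likewise. Orc4 was at 799 and 733 CPM in WT and 656 and 396 in H3K18R, against 143 to 328 CPM in the 6 late drug-treated libraries. Orc5 was lower, at 187 and 179.9 CPM in WT and 197 and 448 in H3K18R against 382 to 713 CPM, with H3K18R replicate 2 inside that range. Rpa1 was lowest of all in these 4 libraries, at 8.70 and 9.31 CPM in WT and 12.8 and 10.7 in H3K18R, and Pola2, the second subunit of polymerase alpha, was at 8.74 and 5.43 CPM in WT and 9.01 and 11.8 in H3K18R against 11.5 to 39.4 CPM in the late drug-treated libraries, with H3K18R replicate 2 inside that range.

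The surrounding pathway was read from 6 further lists of 70 genes. Of 9 genes for chromatin assembly at the fork, 5 (55.6%) fell with stage in each medium, where 5.47% of all genes did in G&N and 5.87% in G&N-L, and none rose. Asf1a, which hands histones to the assembly factors, was at 445 and 347 CPM in early and 88.5 and 102 CPM in late G&N libraries, and 442 and 419.8 CPM in early and 95.5 and 114 CPM in late G&N-L libraries (-2.12 ± 0.24, adjusted p = 0.0106, and -2.11 ± 0.17, adjusted p = 0.00609). Supt16, a subunit of the histone chaperone FACT, fell by 1.79 (adjusted p = 0.0184) and 2.17 (adjusted p = 0.00729). The list's median was -1.79 in G&N and -1.67 in G&N-L. Of 21 G1/S control genes 2 (9.52%) rose in each medium and none fell, a share near that of all genes, of which 8.18% in G&N and 5.97% in G&N-L rose. Ccne1, cyclin E1, was at 8.81 and 2.37 CPM in early and 147 and 146 CPM in late G&N libraries, and 5.01 and 5.21 CPM in early and 54.1 and 66.2 CPM in late G&N-L libraries (4.70 ± 0.64, adjusted p = 0.0143, and 3.49 ± 0.29, adjusted p = 0.00629). The second was the cyclin-dependent kinase inhibitor Cdkn1a in G&N (3.73, adjusted p = 0.0181) and E2f5 in G&N-L (0.80, adjusted p = 0.0335).

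Of 8 checkpoint genes Chek1 alone (12.5%, against 13.7% and 11.8% of all genes called) passed, lower in both media. This kinase, which restrains origins and mitosis under replication stress, was at 2561 and 2633 CPM in early and 486 and 509.99 CPM in late G&N libraries, and 2723 and 2409.9 CPM in early and 419.9 and 501 CPM in late G&N-L libraries (-2.46 ± 0.25, adjusted p = 0.008, and -2.54 ± 0.15, adjusted p = 0.00489). The checkpoint clamp genes came next, with Rad9a at 2.91 in G&N (adjusted p = 0.0981) and Hus1 at -0.76 in G&N-L (adjusted p = 0.12). Of 16 replisome accessory genes 15 were tested, and 4 rose and 1 fell in G&N (33.3% called, against 13.7%) and 1 rose and 2 fell in G&N-L (20%, against 11.8%). Atad5, which unloads the clamp, rose in both, from 11.3 and 11.7 to 80.3 and 107 CPM in G&N (2.94 ± 0.34, adjusted p = 0.0106) and by 2.23 ± 0.38 in G&N-L (adjusted p = 0.028). Rnaseh2a rose in G&N (3.41, adjusted p = 0.0225) and Top1 fell in G&N-L (-0.91, adjusted p = 0.0259). Of 7 origin firing genes 1 (14.3%) fell in G&N, Mtbp (-2.48, adjusted p = 0.0388). In G&N-L, where 6 were tested and 2 called (33.3%), the kinase gene Cdc7 fell (-2.68, adjusted p = 0.0375) and Dbf4, which activates that kinase, rose (1.03, adjusted p = 0.0174). Cdc7 did not pass in G&N (-2.30, adjusted p = 0.0629). Of 9 nucleotide supply genes none was called in G&N (2 at an unadjusted p under 0.05) and 1 in G&N-L (11.1%), Dctpp1, which was higher (1.52, adjusted p = 0.0212), with Dut at 0.57 there and Tk1 and Rrm2b at -1.87 and -1.02 in G&N not passing.

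Without lactate at the late stage, no gene of these lists was called by edgeR. An unadjusted p under 0.05 was found for 8 of the 68 tested (11.8%), against 12% of all genes in either direction. All 8 were lower, where 7.65% of all genes were lower and 4.32% higher at that p. They stood 2 in the replisome accessory list, 2 in nucleotide supply, 1 in chromatin assembly and 3 in G1/S control. Ccne1 was at 147 and 146 CPM with and 54.1 and 66.2 CPM without lactate (-1.24 ± 0.23, adjusted p = 0.311), and 135 and 119 CPM with Lac-CoA. Tyms, thymidylate synthase, was at 20.3 and 44.4 CPM with lactate, 6.81 and 5.04 without it and 21.9 and 14.5 with Lac-CoA (-2.38 ± 0.52, adjusted p = 0.313). Both were lower in the 2 G&N-L libraries than in the 4 others. Rrm1, the large subunit of ribonucleotide reductase, had a log2 fold change of -2.30, Rnaseh2a of -2.14, Top2a of -0.81, Nasp of -0.76 and Cdkn1a of -1.43, each with an adjusted p of 0.332 to 0.339 or, for Rnaseh2a, 0.33. The lowest p in the remaining lists belonged to Ticrr (-0.61), Mtbp (1.01), Ssrp1 (-0.60), Rad17 (-0.31) and Rad9a (-0.67), with unadjusted p-values from 0.0722 to 0.453.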

How the data were processed

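RNA-seq of 14 libraries of mouse 2-cell embryos was analysed from the deposited table of raw counts of reads per gene (56923 genes, whole numbers, not normalized). The authors used FastQC for read quality, Trim Galore for trimming, HISAT2 for alignment (genome mm39) and featureCounts for counting; versions and the strand setting are not given in the sources used here. Groups were taken from the sample titles. The fits were made with edgeR 4.0.16 under R 4.3.3, on each comparison's own 4 libraries (8 for the interaction), after edgeR's default filter on low counts and TMM scaling, by the quasi-likelihood test with Benjamini-Hochberg adjustment over all genes. Standard errors were derived from the fold change and the F statistic. Scripts were tested on simulated data. A floor of 3 counts stood for a count of 0, and intervals and floors cover counting error only, since amplified reads that carry no molecular identifier cannot be counted as separate molecules. With 2 libraries on each side, the smallest two-sided p of an exact permutation test is 0.333. Replicates differed by far more than counting noise (chi-square per degree of freedom 47.8 to 195). Members, lists and tests were chosen with earlier results of these data known. Named with values were MCM2-7, Orc1, Cdc6, Cdt1, Gmnn, Cdc45, Pcna, Pola1, Pold1 and Pole, in each comparison the members past the threshold (at most 10) or else the 5 of smallest p, and the 2 genes of smallest p in each further list for the stage and late lactate comparisons. Members beyond these were named as part of a role group or after their values were seen. DESeq2 1.42.0, edgeR with DESeq2 size factors, scaling to library totals, no filter, a minimum of 10 counts per library, a joint fit of the 14 libraries, a block on replicate number and the omission of each library in turn served as alternatives.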

Additional observations from a re-analysis of the deposited data

How the results depend on the processing

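With DESeq2 the members called with stage were 15 of 45 in G&N (9 by edgeR), where 5937 of 19443 genes were called. In G&N-L they were 20 of 44 (13 by edgeR), where 5182 of 18604 genes were. Late lactate had 3 of 46 (934 of 19481 genes) and Lac-CoA against G&N-L 3 of 46 (1215 of 19610). Lac-CoA against G&N had 1 of 46 (476 of 19613) and the interaction 1 of 46 (246 of 22287). Without the filter, late lactate had 3 of 46 (317 of 28941 genes) and the interaction 1 of 46 (361 of 32454). With 1 library left out the stage counts ran from 0 to 5 in G&N and from 2 to 6 in G&N-L, and the other comparisons stayed at 0. Replicate numbers did not pair the libraries (correlations of same-numbered deviations from -0.040 to 0.007). With the number as a block the stage counts were 4 of 45 in G&N, where 1839 of 19443 genes were called. In G&N-L they were 8 of 44, where 1391 of 18604 genes were. The members' median log2 fold change with stage was, in G&N, -0.20 on library totals, -0.33 with at least 10 counts in every library and -0.64 to -0.40 with 1 library left out. In G&N-L it was -0.38 with DESeq2 and with its size factors, -0.071 on library totals, -0.37 without the filter, -0.36 with at least 10 counts, -0.30 in one fit of all 14 libraries and -0.54 to -0.42 with 1 library left out. The median for Lac-CoA against G&N-L was 0.44 on library totals and 0.11 to 0.33 with 1 library left out. For Lac-CoA against G&N it was -0.013 in one fit of all 14 and -0.12 to 0.14 with 1 left out, for H3K18R -0.38 to -0.13, and for the interaction -0.16 to 0.12. The cause of these shifts was not tested. Of 1050 values of single named genes under the other settings 39 changed sign, and of 672 with 1 library left out 65 did; none of these was past an adjusted p of 0.05 in either fit. On library totals the members summed to 5770 CPM in E2C G&N-L, 6018 in E2C G&N, 4941 in G&N-L + Lac-CoA and 4367 in L2C G&N-L. With 2 libraries a group, libraries differed widely also for low members, such as Pold1 at 0 and 60 counts in the Lac-CoA group and Pole at 269 and 28 counts in early G&N-L.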
